A study of Oryctolagus cuniculus with 12 samples.

Results

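Bile acid and steroid handling was examined through the 4 genes AKR1D1, SULT2A1, SLC10A1 and ACOX2 in the ventricles of fetal rabbit hearts. They were measured by 18 array probes, taken from the 591 genes and 1673 probes that carry a gene symbol among the 43603 probes of the table. The members were picked by symbol. AKR1D1, SULT2A1 and SLC10A1 had come to notice because the brightest probe of each was higher in growth-restricted hearts in all 6 pairs. The difference between the groups is therefore given below as a description, and counts of members in the limma fit stand only beside those of the whole table. The 6 IUGR samples came from fetuses with intrauterine growth restriction, and their titles call them treatment, without naming it. The 6 control samples came from control rabbits, and each IUGR sample shares a pair number with 1 control sample. Strain, fetal age, litter and what a pair shares are unstated in the labels, so differences reflect whatever separates the members of a pair besides growth restriction. Each sample was hybridised in 1 colour to its own array with 500 ng of RNA, and nothing states that the samples came from separate litters.

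Bile acids are made in the liver from cholesterol by enzymes that alter the sterol ring, oxidise the side chain in mitochondria and peroxisomes, and attach an amino acid. Hepatocytes take bile acids back up from portal blood and can add sulfate to them and to steroid hormones, which makes them more soluble. The heart is not known as a site of bile acid synthesis, although it is exposed to bile acids and steroids in the blood.

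Values are log2 signals, on which a difference of 1 is a doubling on the linear scale, and they ran from 1.35 to 15.83 in the table. The probe means piled up at the dim end: 40.5% of all probes averaged between 2 and 3.5, and the median probe mean was 4.61. Heart muscle genes were bright in both groups: MYH6, the alpha myosin heavy chain, stood at 14.98 ± 0.21 in IUGR and 14.77 ± 0.24 in control hearts, and CKM, muscle creatine kinase, at 15.64 ± 0.08 in IUGR and 15.65 ± 0.13 in control hearts (SD, n = 6 each). Differences are IUGR minus control, as a mean ± SD over n = 6 pairs, and signals of different probes are not set against each other. In whole ventricle, fewer cells of a type and less RNA per cell cannot be told apart.

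Of the 18 probes, 0 passed the limma adjusted threshold of 0.05, as did 0% of the whole table. At an unadjusted limma p under 0.05 there were 4 member probes, beside 3.58% of the table. Likewise 4 were higher in all 6 pairs, beside 1.31% of the table, and 0 were lower in all 6, beside 0.943%. In 0 of the 18 probes did the groups separate without overlap, beside 0.0505% of the table. Since this contrast brought the members to notice, these counts support nothing about them.

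AKR1D1, the steroid beta-reductase that reduces a ring double bond in bile acid intermediates and in steroid hormones, was represented by 3 probes, A_04_P001826, A_04_P001827 and A_04_P001828, numbered 1 to 3. All 3 were made to 1 transcript, NM_001081997. RefSeq's current annotation of the rabbit assembly mOryCun1.1 gives that transcript to LOC100008612, the protein-coding gene next to AKR1D1 on the same chromosome. The array calls it AKR1D1, and which of the neighbouring genes the probes detect was not tested.

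With probe 1, AKR1D1 signal in IUGR hearts had a lowest value of 6.53, a median of 7.21 and a highest value of 7.79. In control hearts the lowest value was 5.53, the median 6.45 and the highest 7.47. The groups overlapped, because control replicate 1 exceeded the IUGR median and IUGR replicate 4 lay close to the control median. Within pairs, the IUGR heart was higher by 0.32, 0.16, 0.88, 1.00, 1.21 and 0.65 in pairs 1 to 6. The mean difference was 0.70 ± 0.41, a 1.63-fold difference on the linear scale. The SD of that difference was close to the 0.36 that is the median for the 4361 probes of similar brightness, within 5 percentiles of level.

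The other AKR1D1 probes gave similar differences. Probe 2 averaged 6.70 ± 0.56 in IUGR and 6.06 ± 0.59 in control hearts, a difference of 0.64 ± 0.35. Probe 3 averaged 6.03 ± 0.57 in IUGR and 5.25 ± 0.68 in control hearts, a difference of 0.77 ± 0.55. Of the 18 combinations of probe and pair, 17 were higher in IUGR, and the exception was probe 2 in pair 2 with -0.01. Pairs 1 and 2 had the smallest mean differences over the probes, 0.36 and 0.06, while pairs 3 to 6 had 1.11, 0.94, 0.99 and 0.79. In all 3 probes the brightest array was IUGR replicate 1 and the dimmest was control replicate 4, whose partner was the dimmest IUGR array. AKR1D1 signal thus differed between pairs as well as within them.

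**Figure D1:**
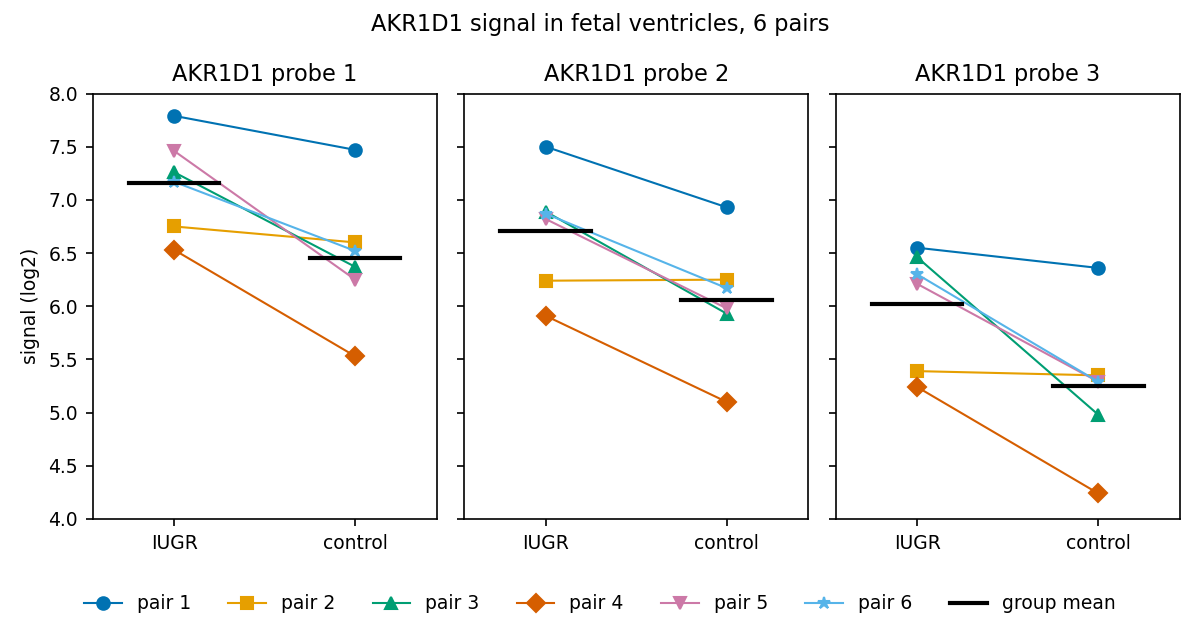
AKR1D1 signal (log2, y axis) with each of its 3 probes in IUGR and control ventricles (x axis). Points are single hearts, lines join the hearts of a pair and black bars are group means (n = 6). The lines run downward from IUGR to control in 17 of 18 cases, and the pairs keep a similar order in each probe.

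Whether the probes of a gene follow each other from array to array does not use the direction of the contrast, and it was tested over the 12 arrays. For the 4 genes there were 33 probe pairs, and p-values from permutation tests were adjusted over all of them by Benjamini and Hochberg. These tests treat the 12 arrays as independent, although 2 arrays of a pair deviate together, so the p-values are approximate. The 3 AKR1D1 probes followed each other closely, with Pearson r from 0.97 to 0.98 and Spearman rho from 0.92 to 0.98 (permutation adjusted p from 0.000165 to 0.00022, and from 0.00033 to 0.00099 for rho). The r was 0.94 to 0.98 without the 2 arrays farthest from the median. These values include the difference between the groups by which AKR1D1 came to notice. With the group means removed r was 0.95 to 0.97 (permutation adjusted p from 0.00033 to 0.00286). Within the groups r was 0.91 to 0.97 among IUGR arrays and 0.98 to 0.99 among control arrays.

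ACOX2, the peroxisomal oxidase that starts the shortening of the side chain of bile acid intermediates, was written THCA on the array and had 5 probes, A_04_P000551 to A_04_P000555, numbered 1 to 5. With the brightest, probe 3, signal in IUGR hearts had a lowest value of 5.06, a median of 5.61 and a highest value of 6.38. In control hearts the lowest value was 4.98, the median 5.63 and the highest 6.51. The groups covered nearly the same range, and the difference was -0.06 ± 0.96. The other 4 probes gave 0.16 to 0.29 with SDs of 0.49 to 0.78, and the mean of all 5 was 0.18 ± 0.68.

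The small mean of ACOX2 hid large differences of opposite direction that the probes shared. All 5 probes were higher in the IUGR heart of pairs 1, 3 and 5, and all 5 were lower in that of pairs 2 and 6. The mean over the probes was 0.57, -0.41, 1.19, 0.08, 0.31 and -0.67 in pairs 1 to 6. The IUGR heart of pair 3 was the brightest array in 4 of the 5 probes, and its partner was the dimmest in 2. With probe 3 the difference turned to 0.15 without pair 2 and to 0.16 without pair 6. With probe 3 the SD of 0.96 exceeded the median of 0.49 for probes of similar brightness. Probes 1, 2, 4 and 5 had SDs of 0.62, 0.49, 0.78 and 0.70, beside medians of 0.55, 0.50, 0.57 and 0.55.

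**Figure D2:**
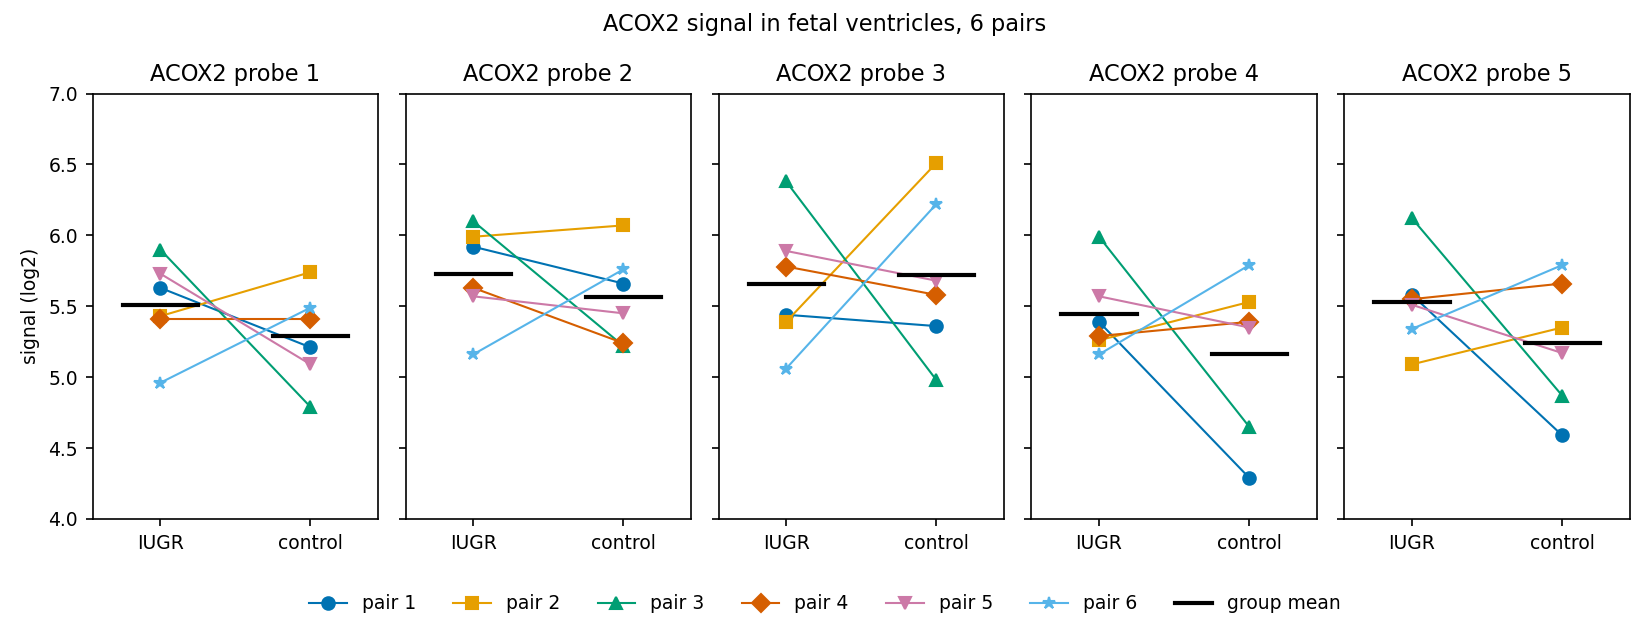
ACOX2 signal (log2, y axis) with each of its 5 probes in IUGR and control ventricles (x axis), with points for hearts, lines for pairs and black bars for group means (n = 6). Lines of pairs 1, 3 and 5 run downward from IUGR to control and those of pairs 2 and 6 run upward in all 5 probes, so the group means lie close together.

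The ACOX2 probes followed each other over the 12 arrays, with r from 0.30 to 0.91 (median 0.69) and rho from 0.33 to 0.87. Of the 10 probe pairs 6 passed (permutation adjusted p from 0.000412 to 0.556 over the 10, and 0.00478 to 0.5 for rho). With the group means removed the median r was 0.70. When the 2 arrays farthest from the median were left out, r was 0.11 to 0.79 and 1 of the 10 passed, with 10 arrays in each test. The r of probes 3 and 4 was then 0.70 against 0.74 over all arrays, and that of probes 4 and 5 was 0.79 against 0.91. By rho 5 of the 10 passed, and 4 with the group means removed. Probe 2 stood somewhat apart, with r of 0.43 and 0.30 to probes 4 and 5.

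SULT2A1, the sulfotransferase that attaches sulfate to bile acids and to dehydroepiandrosterone, had 5 probes, A_04_P002136 to A_04_P002140, numbered 1 to 5. All lay in the crowded dim range, with means of 2.73 to 3.19. With the brightest, probe 2, signal in IUGR hearts had a lowest value of 2.91, a median of 3.24 and a highest value of 5.51. In control hearts the lowest value was 2.28, the median 2.75 and the highest 3.27. The highest value belonged to IUGR replicate 5, and the other IUGR hearts reached 3.79. The pair differences were 0.38, 0.65, 0.17, 1.21, 2.51 and 0.06, with a mean of 0.83 ± 0.92, or 0.49 without pair 5.

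The other SULT2A1 probes did not repeat this pattern. Probe 1 gave -0.38 ± 0.66, probe 3 gave -0.09 ± 0.81, probe 4 gave 0.07 ± 0.78 and probe 5 gave 0.16 ± 1.04. Of 30 combinations of probe and pair 19 were higher and 11 lower in IUGR, and the mean of all 5 probes was 0.12 ± 0.39. In IUGR replicate 5, where probe 2 was highest, probes 1 and 5 had their lowest value of all 12 arrays, 2.32 and 1.97, while probe 3 had its highest IUGR value, 3.36. In pair 5 the IUGR heart was higher in 3 of the 5 probes. The SDs of the probes, 0.66 to 1.04, compare with medians of 0.67 to 0.85 for probes of their brightness.

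Over the 12 arrays the SULT2A1 probes showed r from -0.71 to 0.38, with a median of 0.00, and rho from -0.57 to 0.41. The 1 probe pair that passed, probes 4 and 5, ran in opposite directions (r = -0.71, permutation adjusted p = 0.0291), and with rho none of the 10 passed (lowest permutation adjusted p = 0.145). That pair had r = -0.83 when the 2 arrays farthest from the median were left out. No positive correlation between SULT2A1 probes passed. Detection flags were not used here, so it is not known which of these signals exceeded background.

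SLC10A1, the sodium-coupled transporter by which hepatocytes take up bile acids, had 5 probes, A_04_P001006 to A_04_P001010, numbered 1 to 5. These too lay in the crowded dim range, with means of 2.50 to 2.77, and which of their signals exceeded background is not known either. With the brightest, probe 5, signal in IUGR hearts had a lowest value of 2.33, a median of 3.04 and a highest value of 4.10. In control hearts the lowest value was 2.06, the median 2.41 and the highest 3.17. The pair differences were 1.85, 0.27, 0.70, 0.01, 0.57 and 0.08, so that 2 of the 6 were under 0.1. Their mean was 0.58 ± 0.68, or 0.33 without pair 1.

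With probe 1, SLC10A1 differed by 0.73 ± 1.29, which came from IUGR replicate 2 at 5.35, while the other IUGR hearts lay at 2.10 to 2.56. Without pair 2 that probe gave 0.22. Probes 2, 3 and 4 gave -0.01 ± 0.26, -0.18 ± 0.48 and -0.17 ± 0.51. In IUGR replicate 2, probe 5 had its lowest IUGR value, 2.33, and probe 3 its highest, 3.09. In pair 2 the IUGR heart was higher in 4 of the 5 probes, by 0.27 to 0.29 in 3 of them. The mean of all 5 probes was 0.19 ± 0.32, and the median over the probes was -0.01.

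**Figure D3:**
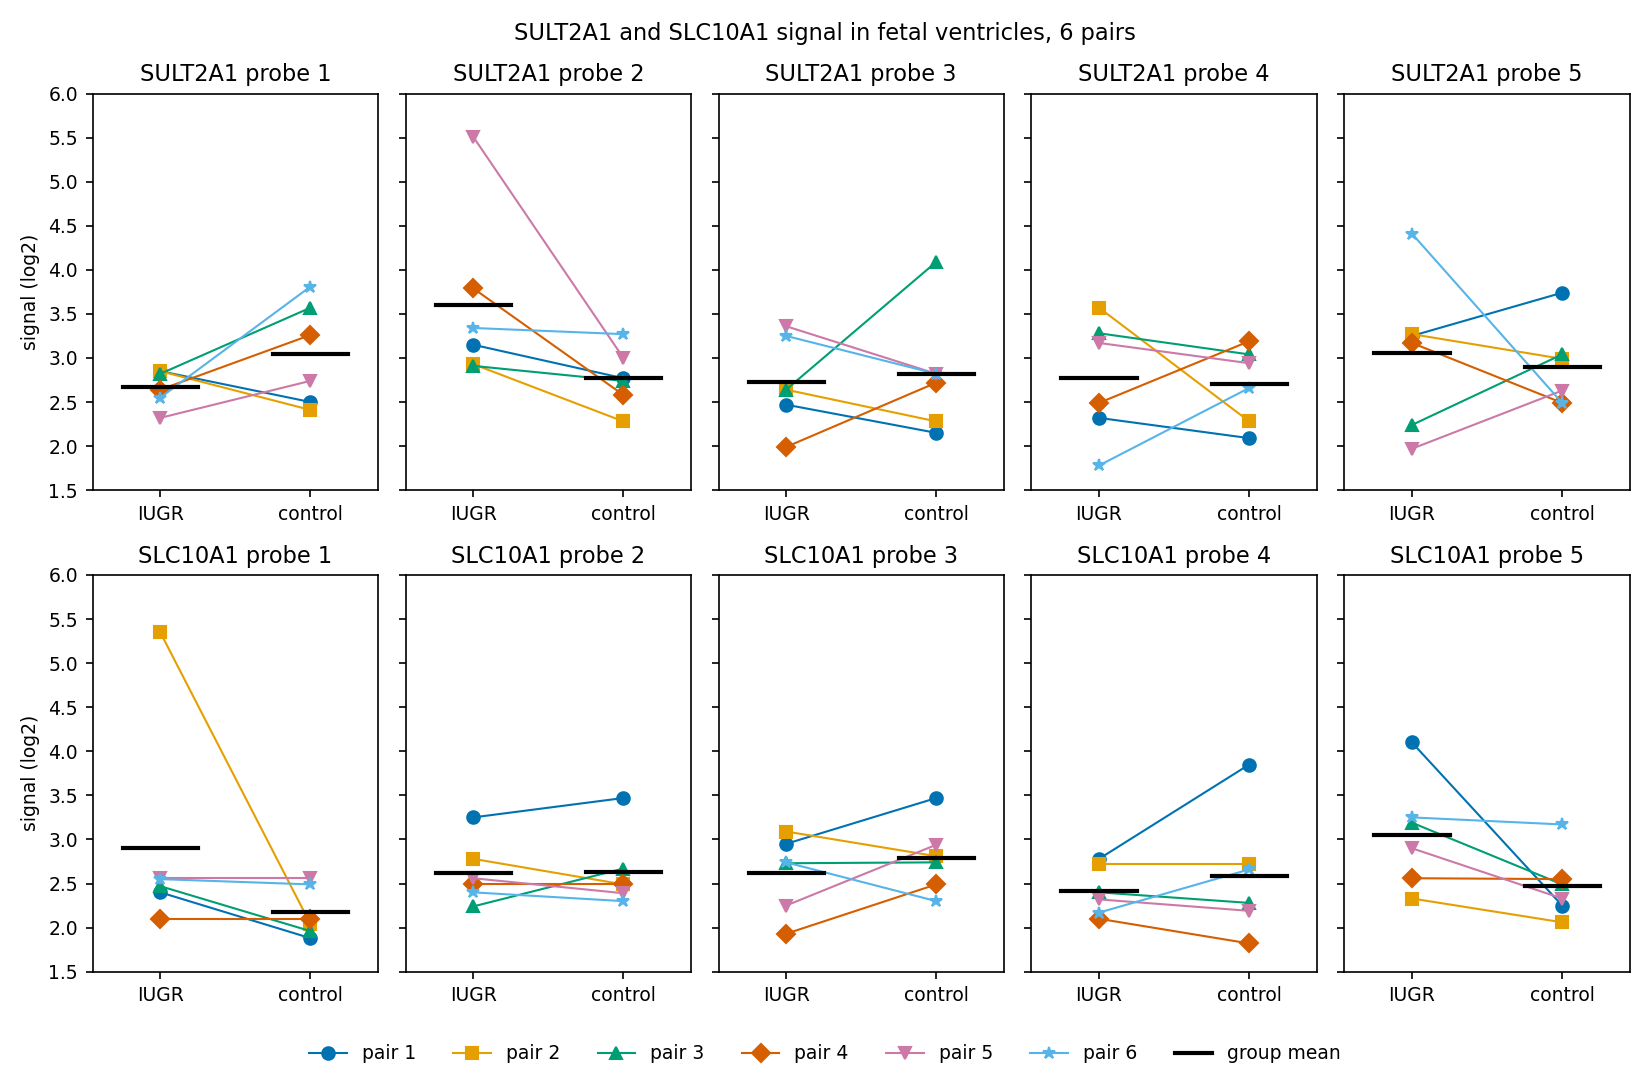
SULT2A1 (top) and SLC10A1 (bottom) signal (log2, y axis) with each of their 5 probes in IUGR and control ventricles (x axis), with points for hearts, lines for pairs and black bars for group means (n = 6). Most points lie between 2 and 4, and the single high points, such as 5.51 for SULT2A1 probe 2 and 5.35 for SLC10A1 probe 1, have no equally high point in the other probes of the gene.

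Over the 12 arrays the SLC10A1 probes showed r from -0.16 to 0.75, with a median of 0.05, and rho from -0.40 to 0.64. Probes 2, 3 and 4 went together at r of 0.63 to 0.75, and 2 of the 10 probe pairs passed (lowest permutation adjusted p = 0.0291). All 3 of these probes had their highest value in control replicate 1. Their r was 0.13 to 0.32 without the 2 arrays farthest from the median, and with rho none of the 10 passed (lowest permutation adjusted p = 0.0982). With the group means removed the r of these 3 probes was 0.64 to 0.76. Within the groups it was 0.42 to 0.78 among IUGR arrays and 0.72 to 0.85 among control arrays. In these settings too 0 of the 10 passed. Probe 5, which stands for the gene, had r of -0.16 to 0.07 with the other 4.

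**Figure D4:**
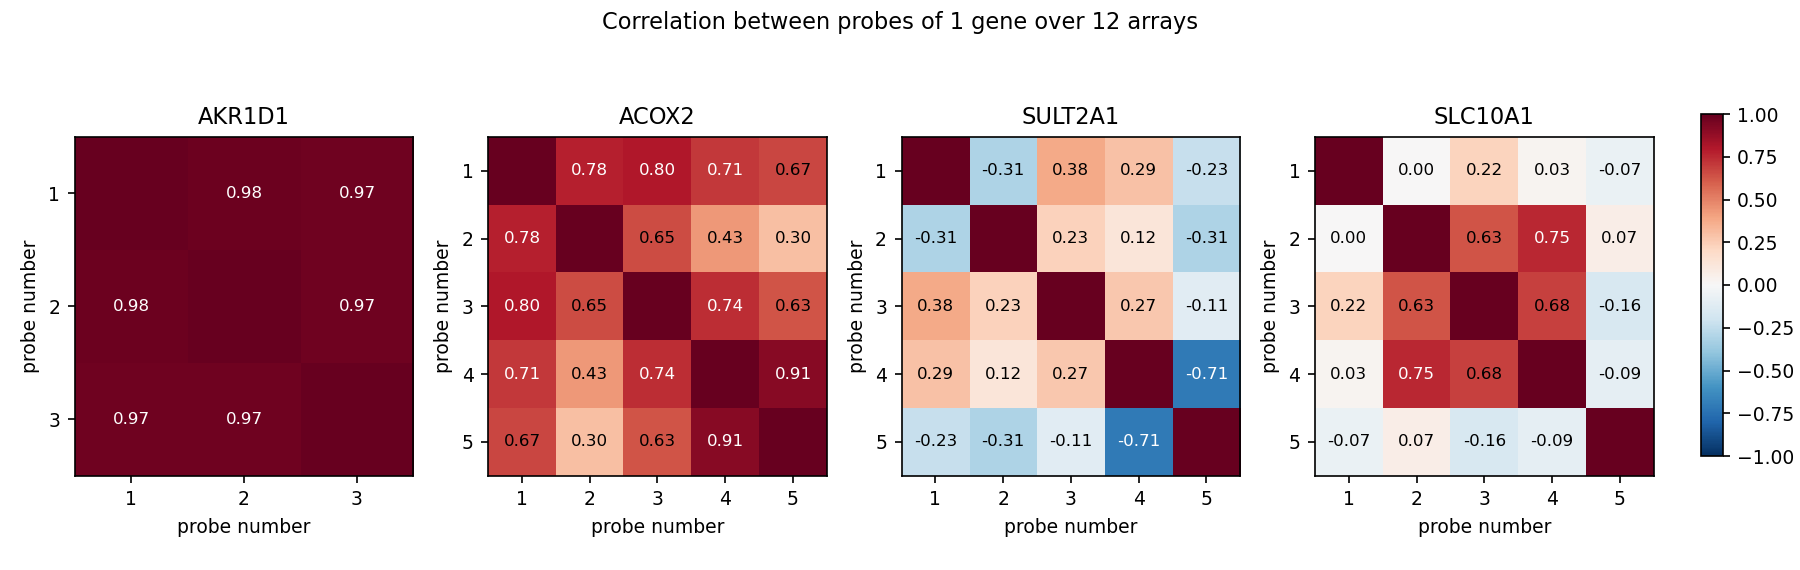
Pearson r between the probes of AKR1D1, ACOX2, SULT2A1 and SLC10A1 over 12 arrays (axes: probe number, colour: r from -1 to 1). AKR1D1 probes lie at 0.97 to 0.98 and ACOX2 probes at 0.30 to 0.91, while SULT2A1 and SLC10A1 probes scatter on both sides of 0.

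Relations between the 4 genes from heart to heart were not settled by 12 arrays. Over these, with the brightest probe of each, r between 2 members ran from -0.06 for SLC10A1 and ACOX2 to 0.53 for AKR1D1 and SLC10A1. The 10 relations tested were the 6 between members and the 4 with liver markers given next. Of these 10, 0 passed (lowest permutation adjusted p = 0.467 for r and 0.459 for rho). AKR1D1, SULT2A1 and SLC10A1 came to notice because these probes were higher in IUGR, so r between them over all arrays includes that shared difference. Their permutation tests use the same values. For AKR1D1 and SLC10A1, rho was 0.33 and r was 0.35 without the 2 arrays farthest from the median. Their r was 0.34 with the group means removed, at 0.86 within IUGR and -0.23 within control arrays. For AKR1D1 and SULT2A1, r was 0.38, and 0.11 with the group means removed. For SULT2A1 and SLC10A1, r was 0.27 and rho was 0.59 (permutation p = 0.0459, adjusted p = 0.459), and r was 0.69 without the 2 arrays farthest from the median. With the group means removed it was 0.00, at -0.17 within IUGR and 0.78 within control arrays. For AKR1D1 and ACOX2, r was -0.04 and rho was -0.04.

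All 4 genes are best known from the liver, so 25 hepatocyte markers were listed, of which 8 were measured (TF, APOB, AHSG, SERPINF2, HPX, ITIH3, VTN and RBP4). ALB and AFP were not analysed here. Of the 8, 2 were higher and 6 lower in IUGR, with 0 passing the limma adjusted threshold. Their mean signal had a lowest value of 4.32, a median of 4.90 and a highest value of 5.72 in IUGR hearts. In control hearts the lowest value was 4.60, the median 5.14 and the highest 7.12. The pair differences of this mean were -0.69, -1.31, 0.96, -0.15, 0.12 and -1.40. The brightest markers were TF, which differed by 0.00 ± 0.50, and AHSG, by -1.13 ± 2.01 and lower in 5 of 6 pairs. All 5 AHSG probes were lower in IUGR, with differences of -1.17 to -1.07. In pairs 1 to 6 AHSG differed by -3.03, -2.48, 2.63, -1.73, -0.67 and -1.50, and these large differences enter the mean of the list.

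The highest liver signal, 7.12, was in control replicate 6 and the next control value, 5.63, in control replicate 2, where AKR1D1 probe 1 read 6.52 and 6.60. The value of control replicate 2, and with it the pair 2 difference of -1.31, includes APOB at 8.07. The other control hearts had APOB at 2.04 to 2.82. Only this 1 of the 3 APOB probes was lower in IUGR (-1.10), and the highest probe difference was 0.27. AKR1D1 and the liver list correlated at r = 0.03 and rho = 0.09 over the 12 arrays (permutation adjusted p = 0.931 and 0.996), and r was 0.08 without the 2 arrays farthest from the median. These values include the difference between the groups, which ran upward for AKR1D1 by its choice and mostly downward for the list. With the group means removed r was 0.25 for AKR1D1 (0.23 within IUGR and 0.25 within control arrays), 0.50 for ACOX2, 0.15 for SULT2A1 and 0.42 for SLC10A1 (lowest permutation adjusted p = 0.692). Whether liver RNA has a part in the AKR1D1 values was not tested. For ACOX2 r was 0.50 and rho 0.45 (permutation adjusted p = 0.467 and 0.704), with r of 0.49 without those arrays. The ACOX2 probes and the liver list shared the direction of their difference in pairs 2, 3, 5 and 6. For SULT2A1 and SLC10A1, r with the liver list was -0.03 and 0.19, rho was 0.06 and 0.18, and the permutation adjusted p was 0.931 for both r values and 0.996 for both rho values. Without the 2 arrays farthest from the median these r values were 0.28 and 0.51.

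Markers of red blood cells were higher in IUGR for both measured genes of the list, HBA, the alpha chain of haemoglobin, and BPGM, with 0 passing. The list's mean signal ran from 12.99 to 13.99 in IUGR hearts and from 12.54 to 13.59 in control hearts. HBA stood at 14.81 ± 0.34 in IUGR and 14.41 ± 0.53 in control hearts (SD, n = 6 each), and it was higher in 6 of 6 pairs by 0.41 ± 0.31, as AKR1D1 was by 0.70 ± 0.41. BPGM differed by 0.14 ± 0.26 and was higher in 4 of 6 pairs. Atrial markers (NPPA, SLN and GJA5) ran from 7.63 to 11.07 in IUGR and from 7.17 to 9.30 in control hearts on the mean, with 3 of 3 higher and 0 passing. Each was higher in 4 of 6 pairs, with differences of 0.76 ± 1.97, 0.44 ± 0.92 and 0.14 ± 0.34. Of endothelial markers, KDR, the main VEGF receptor of endothelial cells, was higher by 0.43 ± 0.30 in 6 of 6 pairs, and VWF differed by 0.12 ± 1.13. Of vessel wall markers, TAGLN, a smooth muscle actin-binding protein, was higher by 0.50 ± 0.43 in 5 of 6 pairs, COL8A1, a short-chain collagen, was lower in 5 of 6 with -0.39 ± 0.25, and MYH11, smooth muscle myosin, differed by -0.55 ± 0.92. The part of blood, vessels or atrial tissue in the member values was not tested. Over all cell type lists, 32 markers were measured, of which 0 passed the limma adjusted threshold. An unadjusted limma p under 0.05 was found for 4, HBA, KDR, TAGLN and COL8A1, beside 3.58% of the table. HBA and KDR were higher in all 6 pairs, beside 2.2% of the named genes. For steroid-making adrenal and gonad cells and for bile duct, gut and kidney epithelium there were 0 measured.

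The wider pathway was covered by 122 listed genes for bile acid synthesis, transport and sensing, steroid conversion, sulfation, steroid receptors, peroxisomal oxidation and aldo-keto reductases. Of these 15 were measured, and for peroxisomal oxidation and the other aldo-keto reductases there were 0. In IUGR 8 of the 15 were higher and 7 lower, with a median difference of 0.02 beside 0.01 over the 591 named genes. In limma 0 of 15 passed in either direction (adjusted p from 0.982 to 1.0), 0 had an unadjusted p under 0.05, and 0 had 1 direction in all 6 pairs. The named genes as a whole had 0% past the adjusted threshold and 2.2% higher in all pairs.

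In bile acid synthesis, CYP8B1, the sterol hydroxylase that sets the share of cholic acid, differed by -0.10 ± 1.03 in its brightest probe. Its 6 probes ran from -0.25 to 0.80, with a mean of 0.04. SCP2, the peroxisomal thiolase and sterol carrier that acts after ACOX2, differed by 0.08 ± 0.07 and was higher in 5 of 6 pairs, at 9.85 to 10.11 in IUGR and 9.71 to 10.01 in control hearts. That probe varied little between hearts, and its other probe gave -0.28. In transport and detoxification, SLC10A2, the intestinal relative of SLC10A1, differed by 0.59 ± 2.13. IUGR replicate 5 stood at 7.11 while the other IUGR hearts lay at 2.06 to 3.66, and without pair 5 the difference was -0.26. The 4 SLC10A2 probes ran from -0.34 to 0.59, with a mean of 0.09. EPHX1, a microsomal epoxide hydrolase, differed by 0.10 ± 0.38.

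Among sensors, GPBAR1, the membrane receptor for bile acids, differed by 0.06 ± 0.66, and NR1I2, a nuclear receptor for steroids and bile acids, by 0.22 ± 0.25, higher in 5 of 6 pairs at a dim level of 2.71 ± 0.20 in IUGR and 2.50 ± 0.13 in control hearts. Of the enzymes of steroid conversion, HSD11B2, which inactivates cortisol, differed by -0.54 ± 0.82 and was lower in 5 of 6 pairs, also at a dim level (2.38 ± 0.51 in IUGR and 2.92 ± 0.59 in control hearts). HSD17B1, which forms oestradiol, differed by 0.02 ± 0.39, and HSD17B7, which also acts in cholesterol synthesis, by -0.01 ± 0.14. None of these genes had a pair difference that kept 1 direction throughout.

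Of the relatives of SULT2A1, SULT1C2 differed by 0.93 ± 1.65, higher in 3 of 6 pairs, with IUGR signals from 2.56 to 6.17 and control signals from 2.42 to 3.77. SULT2B1, which sulfates cholesterol, differed by -0.30 ± 1.19. SULT4A1, the form known from brain, differed by -0.36 ± 0.63 in its brighter probe and by -0.55 in the other. The glucocorticoid receptor gene NR3C1 differed by -0.01 ± 0.60, the progesterone receptor gene PGR by 0.05 ± 0.50, and SHBG, which binds sex steroids in blood, by -0.41 ± 0.97. For each of these genes the SD over the pairs exceeded the mean difference.

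**Figure D5:**
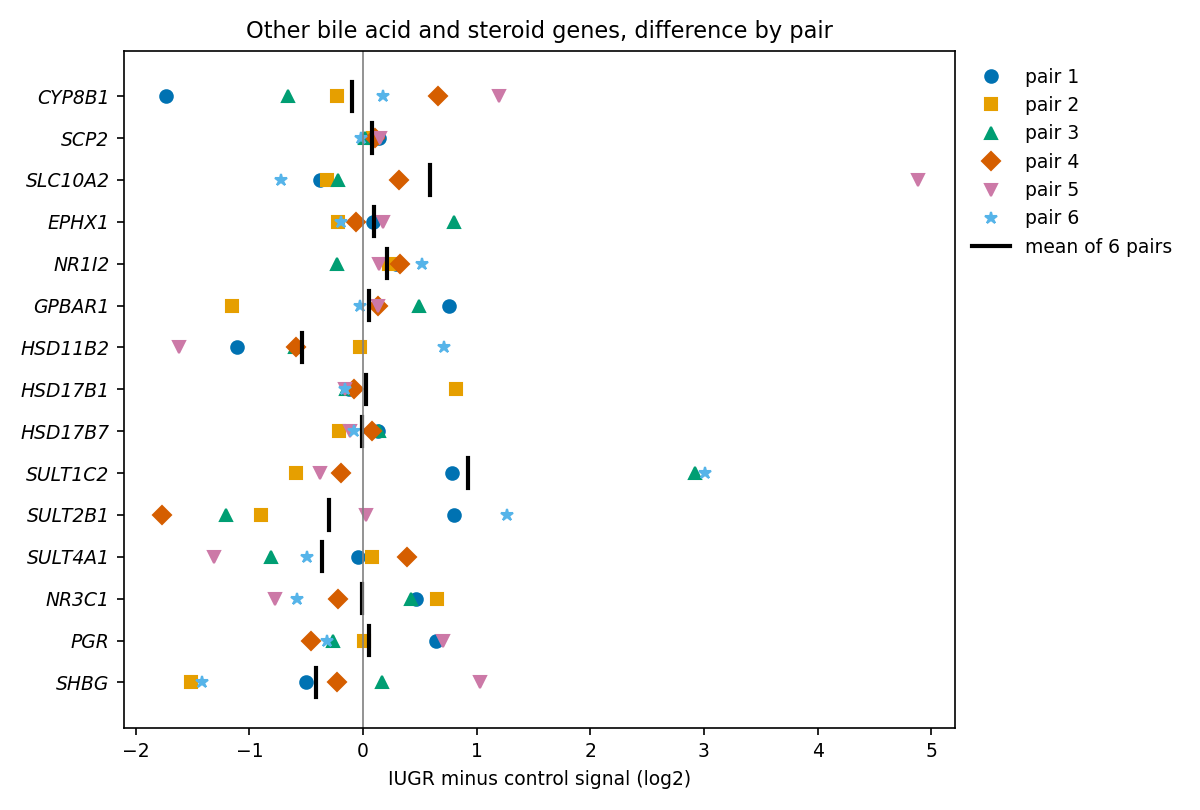
IUGR minus control signal (log2, x axis) of 15 other bile acid and steroid genes (y axis), with a point for each of 6 pairs and a black bar for their mean. The means lie between -0.54 and 0.93, and for every gene points fall on both sides of 0, including SLC10A2 with its 1 point at 4.88.

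The genes whose signal was most like that of each member over the 12 arrays were ranked by Pearson r among 587 other named genes. They were picked as the highest, so no p is given. AKR1D1 was most like SLC12A4, a potassium chloride cotransporter (r = 0.77, rho = 0.81), KCNS3, a modifier subunit of potassium channels (r = 0.76, rho = 0.75), and KCNA1, a potassium channel (r = 0.73, rho = 0.71). The r of these 3 genes was 0.76, 0.77 and 0.64 with the group means removed, but over the 6 pair differences it was 0.07, 0.39 and 0.34. KCNA1 lay in the crowded dim range, at 2.65 in IUGR and 2.36 in control hearts. Without the 2 arrays farthest from the AKR1D1 median the r of these 3 genes was 0.62, 0.61 and 0.40.

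ACOX2 was most like GHR, the growth hormone receptor (r = 0.77, rho = 0.66), CD1E, a lipid antigen protein (r = 0.72, rho = 0.71), and EPHX1 (r = 0.71, rho = 0.71). Over the pair differences these r values were 0.81, 0.92 and 0.92, which ranked 20, 7 and 6 among the 587 genes. Without the 2 arrays farthest from the ACOX2 median the r values were 0.45, 0.81 and 0.66. SULT2A1 was most like KITLG, the ligand of the KIT receptor (r = 0.89, rho = 0.67), ADRA2A, an adrenergic receptor (r = 0.87, rho = 0.53), and PRKCE, a protein kinase C (r = 0.86, rho = 0.34). All 3 were highest in IUGR replicate 5, and without that array their r was 0.64, 0.25 and 0.09. SLC10A1 was most like TNFSF13B, a B cell survival factor (r = 0.77, rho = 0.56), F11, a coagulation factor (r = 0.71, rho = 0.25), and LRP1, a lipoprotein receptor (r = 0.69, rho = 0.52). All 3 were highest in IUGR replicate 1, and without that array their r was 0.38, 0.17 and 0.51. CD1E, ADRA2A, PRKCE, TNFSF13B, F11 and LRP1 lay in the crowded dim range, with control means of 2.26 to 2.93.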

How the data were processed

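Total RNA of 12 fetal rabbit ventricles was labelled with Cy3 and hybridised to 1-colour Agilent arrays, per the labels' protocols. The deposited values are log2 signals that the authors made with RMA, per the submitters' processing notes. Base 2 was inferred from the values. The sorted values of the arrays differ by at most 0.13 at any rank, so a shift common to most transcripts cannot be seen. Neither scanner software, background method nor probe filter is given in the sources used here.

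Values were used as deposited. Symbols were updated through transcript accessions, current symbols and synonyms, and each gene was represented by its probe with the highest mean over the 12 arrays. No sequence or coordinates are given. All 43603 probes entered a two-sided moderated test with the pair as a block (lmFit and eBayes of limma 3.58.1, under R 4.3.3), adjusted by Benjamini and Hochberg. The pair numbers of the labels were checked: deviations from the group means correlated at 0.129 to 0.254 within the 6 pairs. The fit was tested on simulated data. Correlations were tested two-sided with 100000 permutations (NumPy 2.4.6, with rho from SciPy 1.17.1). Those within a group of 6 arrays were tested with all 720 permutations. Precision is limited by the number of arrays.

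Named genes were every member probe, up to 4 measured genes of each pathway list and the 3 named genes most like each member. The brightest markers of the cell type lists were named too, of which heart, atrium, liver, blood and vessels are given. Liver markers in which a single heart stood apart, and the other measured markers of atrium and vessels, were added to these. Members, lists and rules were chosen with earlier results of these data known. Alternatives were another scaling, a filter on dim probes, a fit without the pair block, an intensity trend, an ordinary paired test, other probe summaries and leaving out each pair. The relations between members and with the liver list, and the setting without pairs 2 and 6, were added after seeing the data.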

Additional observations from a re-analysis of the deposited data

Results flagged for a closer look

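Dixon's criterion was applied within each group of 6 hearts to find single hearts that stood apart, over the 18 member probes, the 15 pathway genes, the 8 liver markers and the 12 most alike genes (11 not yet counted). Chance gives about 1 in 20. Of 104 groups 18 held one, and 13 of 82 without the most alike genes, which were picked by their match to a member. Of the 36 groups of member probes 4 held one, 11.1%, beside 9.7% over all probes of the table.

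Among the members, SULT2A1 probe 2 stood at 5.51 in IUGR replicate 5 (the others 2.91 to 3.79), and SULT2A1 probe 3 at 4.09 in control replicate 3 (the others 2.15 to 2.82). SLC10A1 probe 1 stood at 5.35 in IUGR replicate 2 (the others 2.10 to 2.56), and SLC10A1 probe 2 at 3.47 in control replicate 1 (the others 2.30 to 2.67). AKR1D1 and ACOX2 had no such sample in any probe.

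In IUGR replicate 5, SLC10A2 stood at 7.11, KITLG at 6.08, ADRA2A at 5.95 and PRKCE at 7.69, with the others of each at most 3.66, 4.68, 3.45 and 3.77. Over the whole table, 1.12% of probes stood apart high in that array, within the 0.681% to 1.57% of the 12 arrays. In IUGR replicate 1, TNFSF13B stood at 4.29 (the others at most 2.91) and F11 at 4.72 (at most 2.73). HSD17B1 stood at 4.10 in IUGR replicate 2, SULT4A1 at 10.83 in IUGR replicate 4, and GPBAR1 low at 5.24 in control replicate 1. Among liver markers, TF stood at 10.08, SERPINF2 at 6.17, ITIH3 at 7.12 and VTN at 5.08 in control replicate 6, and APOB at 8.07 in control replicate 2.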

How the results depend on the processing

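Under the 12 alternatives of the limma fit, the ordinary paired test included, the count of probes past the adjusted threshold was 0 throughout (with 1562 at an unadjusted p under 0.05). That count of 1562 was 857 with no replicate block and 624 with the probes above the median level, and 1443 to 1980 when 1 pair was left out. The count of 983 probes with 1 direction in all pairs was 438 among the brighter probes and 1876 to 3068 when 1 pair was left out, which leaves 5 pairs to share a direction. With complete pairs, the replicate block cannot move a mean difference (0.70 for AKR1D1, 0.83 for SULT2A1, 0.58 for SLC10A1 and -0.06 for ACOX2). AKR1D1 ran from 0.60 to 0.81 without 1 pair. It was 0.85 without pairs 2 and 6, whose differences of 0.16 and 0.65 lay below its mean, so that rise was fixed in advance. Without 1 pair, SULT2A1 ran from 0.49 to 0.98, SLC10A1 from 0.33 to 0.69 and ACOX2 from -0.36 to 0.16, with 0.15 without pair 2. ACOX2 also turned to 0.18 with the mean of all probes, 0.22 with their median and 0.14 with the median over pairs, and SLC10A1 to -0.01 with the median of its probes. With 1 pair left out, SULT2A1 probe 3 ran from -0.21 to 0.19 (0.04 without pair 4), probe 4 from -0.17 to 0.26 and probe 5 from -0.19 to 0.35, and SLC10A1 probe 2 from -0.08 to 0.07 (0.03 without pair 1) and probe 4 from -0.26 to 0.01. The median of the 15 pathway genes, 0.02, ran from -0.04 to 0.07 (-0.03 without pair 3), with -0.01 for the median of all probes and -0.02 for the median over pairs. Of the probe pairs that passed, AKR1D1 had 3, ACOX2 6, SLC10A1 2 and SULT2A1 1. Within IUGR arrays these were 1, 0, 0 and 0 and within control arrays 0 in each, where 6 arrays limit the test. The smallest permutation p that 6 arrays allow is 0.00139, before adjustment over the 33 probe pairs, so few could pass there. With rho and with the group means removed, SULT2A1 and SLC10A1 had 0. Without the 2 arrays farthest from the median ACOX2 had 1 and SLC10A1 0. The cause of these shifts was not tested.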
